A study of Mus musculus with 66 samples.

Results

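The 10 genes described here encode the subunits of Polycomb repressive complex 2 (PRC2) and its regulatory partners. They are Ezh1, Ezh2, Eed, Suz12, Jarid2, Mtf2, Phf1, Phf19, Rbbp4 and Rbbp7, and were chosen by symbol from the 30084 gene symbols of the count table. All 10 were among the 16145 genes that passed the filter on low counts. Their mRNA was sequenced in mouse neurons in culture that had received a lentivirus with a short hairpin RNA (shRNA, a hairpin that directs the loss of a matching mRNA) against one of 9 regulators of chromatin and transcription. These targets were Chd8, Med13l, Ash1l, Mbd5, Setd5, Kdm6b, Kmt2c, Tbr1 and Dnmt3a. None of the 10 genes was itself a target.

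Neurons of wildtype genotype (WT) came from e16.5 embryos, sorted into males and females. Each of the 22 groups held 3 libraries of one sex that received an shRNA against a target, a nontargeting shRNA or no virus. Virus stayed on the cells until day 6 and lysis followed on day 10, and the stated aim was a target level of about 50%. The hairpin sequences and the promoter that drives them are not given in the sources used here. The labels speak of triplicate wells and do not say that replicates came from separate embryos, so the p-values measure the spread between these libraries, which may be technical.

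PRC2 places methyl groups on lysine 27 of histone H3, a mark of repressed genes that many developmental regulators carry in neurons. Ezh1 and Ezh2 encode the alternative catalytic subunits; Ezh2 is known for its high level in dividing progenitors and Ezh1 for its level in cells that have stopped dividing. Eed binds the methyl mark and Suz12 holds the core together, while Rbbp4 and Rbbp7 encode closely related histone-binding proteins that also belong to other chromatin complexes. Jarid2 and the Polycomb-like proteins Mtf2, Phf1 and Phf19 help bring the complex to its sites on chromatin.

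Total counts ranged from 13759741 to 66558546 per library. Each target was lower in its shRNA group than in the nontargeting group of the same sex, with group means between 22.3% and 54.4% of the nontargeting mean. In 3 libraries the data went against the label. The library labelled Setd5 shRNA male replicate 1 held Setd5 at 141 CPM (counts scaled to the library's size) and Kdm6b at 23.1 CPM. The library labelled Kdm6b shRNA male replicate 1 held Setd5 at 44.9 CPM and Kdm6b at 39.9 CPM. Nontargeting males had means of 139.1 CPM for Setd5 and 59.85 CPM for Kdm6b. Kdm6b shRNA female replicate 3, not counted among the 3, held Kdm6b at 36.2 CPM, against a nontargeting female mean of 45.9 CPM. The library labelled Setd5 shRNA female replicate 1 held 612 counts of the Y-linked gene Ddx3y, against at most 12 in the other female libraries and at least 1690 in males. The Y-linked genes differed in that library, with 574 counts of Kdm5d (at least 696 in males), 24 of Eif2s3y (at least 1261) and 0 of Uty (at least 515). The summed level of 6 neuron markers was between 5193 and 7267 CPM over the 66 libraries, and that of 7 microglia markers between 0.437 and 4.19 CPM. Those of 7 astrocyte markers were between 48.2 and 311 CPM and those of 6 neural progenitor markers between 58.2 and 151 CPM. A bulk library cannot tell fewer cells of a type from less RNA per cell.

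Scaled to exon length, so that genes can be compared, Rbbp7 was the most abundant member in nontargeting males at 48.0 CPM per kb, followed by Rbbp4 at 15.3 CPM per kb. Phf1 stood at 10.1 and Suz12 at 9.60 CPM per kb, and their libraries overlapped. Jarid2 stood at 7.46, Ezh1 at 5.08, Mtf2 at 4.34 and Eed at 3.78 CPM per kb, with Mtf2 and Eed overlapping. Ezh2 was at 0.858 CPM per kb, and Phf19 was last at 0.251 CPM per kb, where 1 library held as few as 4 counts. The per-length level of Ezh1 was 5.93 times that of Ezh2 in nontargeting males and 7.27 times in nontargeting females. Phf1 shares 39.3% of its exon bases with Cuta on the opposite strand, and whether the counting used strand is not stated, so its level is uncertain. How reads shared by the paralogs Rbbp4 and Rbbp7 were counted is not stated either.

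Infection with the nontargeting virus was compared with no virus as the background of the system. By edgeR's quasi-likelihood test none of the 20 member comparisons passed an adjusted p of 0.05, 0 had an unadjusted p below it, and DESeq2 also called 0. Over all genes the share called was 0% in males and 0% in females.

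Across the 9 knockdowns, each set against the nontargeting libraries of its sex, 2 of 90 member comparisons passed the threshold in males and 3 of 90 in females, all of them after Chd8 or Med13l shRNA. In males the share of all genes called was 9.84% after Chd8 and 8.06% after Med13l, and in females 9.33% and 10.2%. It was 1.98% for Ash1l, 0.111% for Dnmt3a, 0.0867% for Kdm6b, 0.0867% for Kmt2c, 0.0619% for Mbd5, 0.0557% for Setd5 and 0.217% for Tbr1 in males. In females it was 1.1% for Ash1l, 0.118% for Dnmt3a, 0% for Kdm6b, 0.0991% for Kmt2c, 0.0557% for Mbd5, 3.12% for Setd5 and 0.0619% for Tbr1. The members called thus lie in the comparisons with the broadest change. With the male and female effects averaged, 9 of 90 passed, again all after Chd8 or Med13l. Without the 3 libraries that went against their labels the counts were 2 in males, 4 in females and 10 averaged. The additions were Ezh1 in Chd8 females (-0.38, edgeR adjusted p = 0.0484) and Phf1 after Chd8 averaged (-0.43, edgeR adjusted p = 0.0315). All knockdowns of a sex share the same 3 nontargeting libraries.

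**Figure D1:**
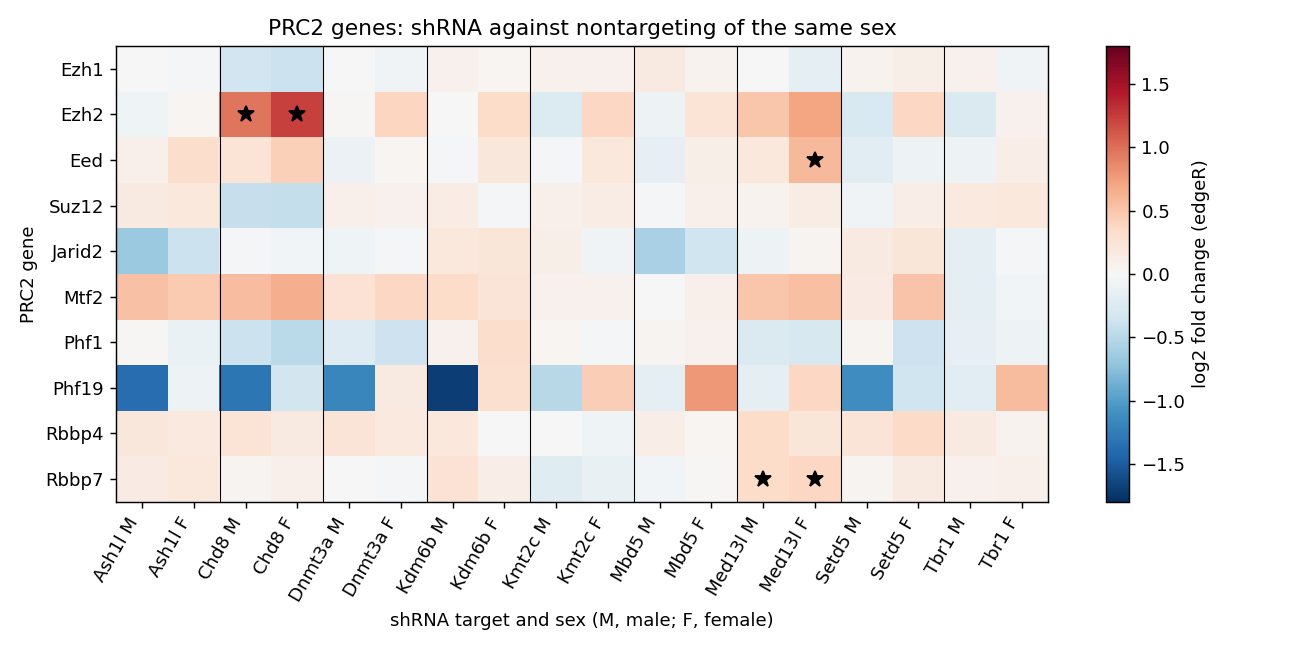
Log2 fold change of the 10 PRC2 genes (rows) in each shRNA group against the nontargeting group of the same sex (columns; M, male; F, female), in color from -1.8 to 1.8; stars mark adjusted p below 0.05. The 5 stars lie under Chd8 (Ezh2 in both sexes) and Med13l (Eed in females, Rbbp7 in both sexes), and the strongest colors without a star belong to Phf19, the member with the fewest counts.

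After Chd8 shRNA, which depletes a chromodomain remodeler, the balance between the catalytic genes moved toward Ezh2. Averaged over the sexes, 3 members rose (Ezh2, Mtf2, Eed) and 2 fell (Ezh1, Suz12) of 10, against 22.3% of all genes called, 9.85% higher and 12.5% lower. The median log2 fold change was 0.01 over the members and -0.003 over all genes. Members of one complex thus moved in both directions.

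Ezh2 stood at 5.84, 6.04 and 5.31 CPM in nontargeting males and at 10.5, 9.66 and 13.3 CPM in Chd8 males. It stood at 4.29, 4.25 and 6.02 CPM in nontargeting females and at 18.1, 6.73 and 9.26 CPM in Chd8 females. The Chd8 and nontargeting libraries did not overlap in either sex, and the spread in Chd8 females came from replicate 1. The lowest Chd8 female library lay below the highest no virus female library, at 6.93 CPM. Over the 11 conditions, female number 1 libraries had a mean Ezh2 of 8.02 CPM, against 4.63 for number 2 and 6.54 for number 3. The nontargeting library, at 4.29 CPM, was the lowest of those 11 number 1 libraries. The log2 fold change was 0.96 ± 0.27 (SE, n = 3 against 3; edgeR adjusted p = 0.0156) in males and 1.23 ± 0.28 (edgeR adjusted p = 0.00178) in females. Without Chd8 shRNA female replicate 1 the female value was 0.73 and lost the call (edgeR adjusted p = 0.155), which was also lost with only the libraries compared in the fit (1.23, edgeR adjusted p = 0.194). The male call was lost without Chd8 shRNA male replicate 3 (0.82, edgeR adjusted p = 0.106) and without nontargeting male replicate 3 (0.91, edgeR adjusted p = 0.0753). Averaged over the sexes the change was 1.09 ± 0.19 (edgeR adjusted p = 2.17e-05), and it stayed called under all 21 alternatives, from 0.85 to 1.23.

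Ezh1 went the other way. It was 34.3, 42.1 and 37.1 CPM in nontargeting males against 28.5, 34.6 and 26.1 CPM in Chd8 males, where 1 library overlapped the controls. The female values were 36.9, 38.2 and 42.7 CPM against 27.7, 27.2 and 35.4 CPM, without overlap. Neither sex alone passed (log2 fold change -0.35 in males, edgeR adjusted p = 0.0884, and -0.38 in females, edgeR adjusted p = 0.0545). Averaged, Ezh1 fell by 0.37 ± 0.09 on the log2 scale (edgeR adjusted p = 0.00254), and this held under all 21 alternatives.

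The ratio of Ezh1 to Ezh2, each per kb of exon, joined both changes in one number per library. In Chd8 males it was 2.44, 3.22 and 1.76, and in Chd8 females 1.37, 3.63 and 3.43. In nontargeting males it was 5.27, 6.26 and 6.27, and in nontargeting females 7.72, 8.08 and 6.37. Every Chd8 library was therefore below every nontargeting library. From group means the ratio was 2.39 in Chd8 males and 2.38 in Chd8 females, 4.17 and 3.97 after Med13l, and between 5.32 and 7.88 in the other 18 groups. Single libraries overlapped, as Dnmt3a female replicate 1, at 3.53, lay within the Chd8 range. Med13l libraries ran from 2.89 to 5.30. Female replicate 1 of no virus (4.29), Kdm6b (4.32), Mbd5 (4.70) and Kmt2c (4.96) lay within that range, as did nontargeting male replicate 1. No test was made of the ratio.

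**Figure D2:**
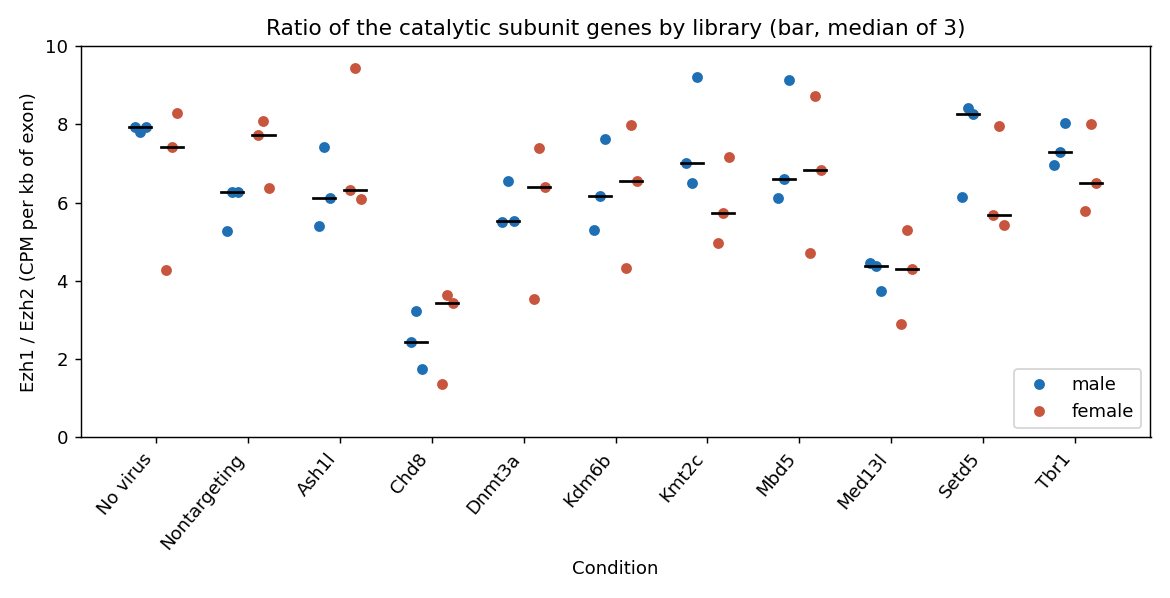
Ratio of Ezh1 to Ezh2 (CPM per kb of exon, vertical axis) in each library, by condition and sex; bars are medians of 3 libraries. The 6 Chd8 libraries lie between 1.37 and 3.63, and the Med13l libraries between 2.89 and 5.30. Single libraries of other conditions lie within these ranges, such as Dnmt3a female replicate 1 at 3.53.

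Suz12, the scaffold gene, was 46.9, 52.3 and 43.2 CPM in nontargeting males and 39.1, 38.3 and 29.3 CPM in Chd8 males. In females it was 47.2, 40.7 and 46.5 CPM against 31.4, 33.4 and 34.9 CPM. The groups did not overlap in either sex. Averaged, it fell by 0.42 ± 0.12 on the log2 scale (edgeR adjusted p = 0.00574) and stayed called under all 21 alternatives, while each sex alone missed the threshold (edgeR adjusted p = 0.109 in males and 0.0977 in females).

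Eed was 16.7, 13.7 and 13.04 CPM in nontargeting males and 19.0, 17.1 and 15.2 CPM in Chd8 males, with overlap. Females stood at 12.8, 14.4 and 14.1 CPM against 21.0, 16.7 and 18.1 CPM, without overlap. Averaged it rose by 0.34 ± 0.11 (edgeR adjusted p = 0.0190). Against no virus the value was 0.23 (edgeR adjusted p = 0.135). It was between 0.30 and 0.31 and not called without Chd8 shRNA male replicate 1, nontargeting male replicate 3, Chd8 shRNA female replicate 1 or nontargeting female replicate 1 (edgeR adjusted p from 0.0511 to 0.0707).

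**Figure D3:**
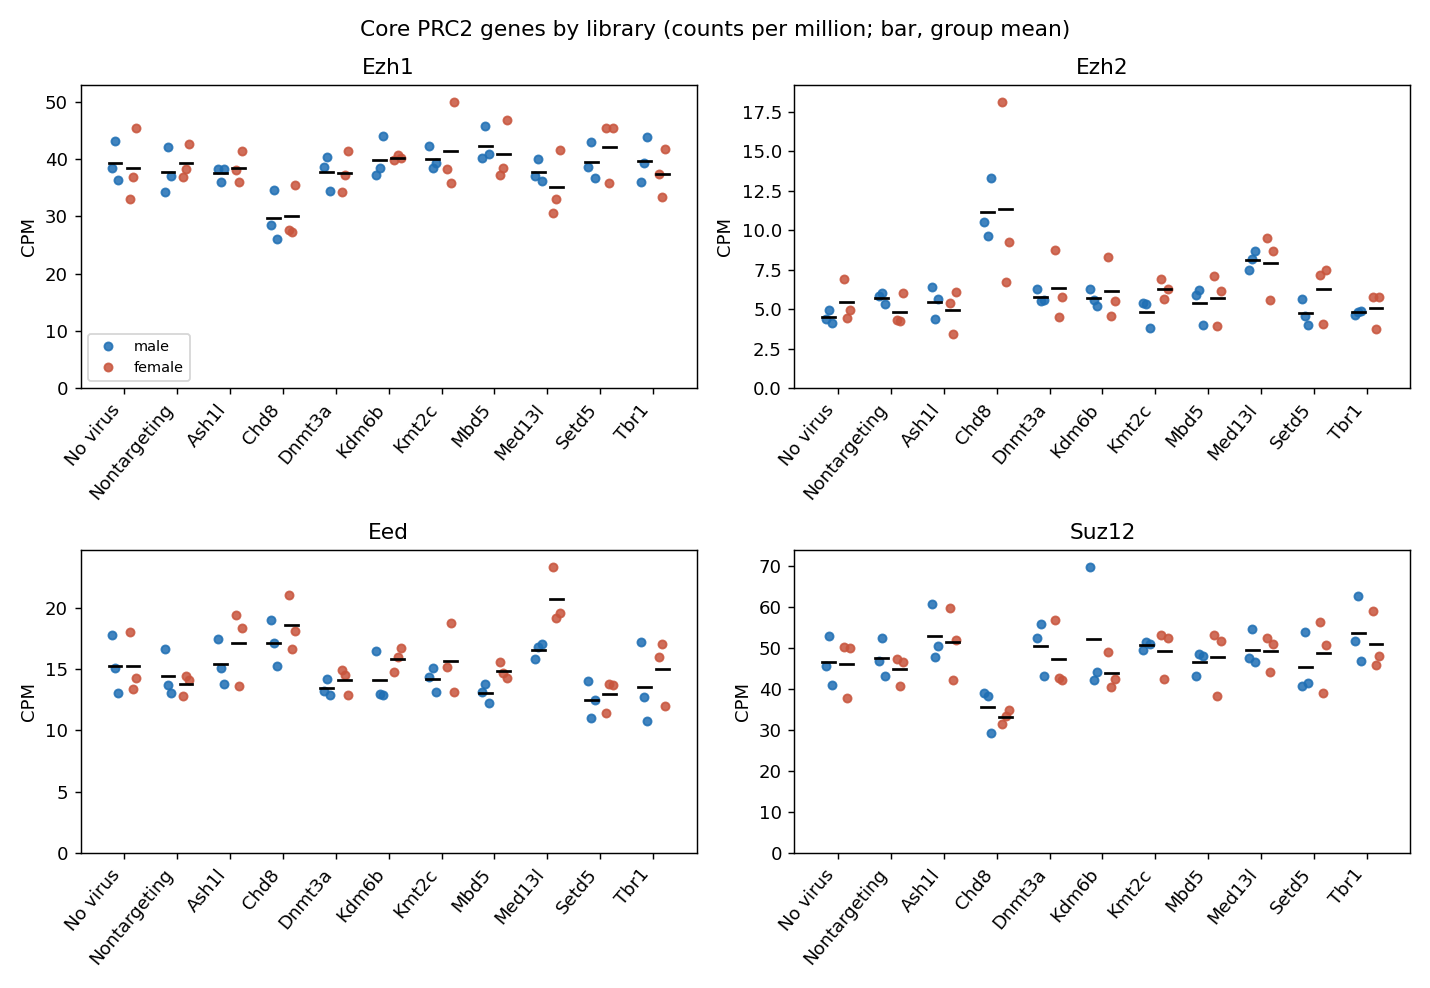
Level (CPM, vertical axis) of Ezh1, Ezh2, Eed and Suz12 in each of the 66 libraries by condition (horizontal axis) and sex; bars are group means of 3 libraries. Chd8 shRNA has the lowest Ezh1 and Suz12 means and the highest Ezh2 means, up to 11.4 CPM in females, and Eed is highest in Med13l females at 20.7 CPM.

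The promoters of these 4 core genes are shown because their mRNAs parted in direction after Chd8 shRNA. Each run covers 250 bases before and 50 after the RefSeq start (GRCm38.p6, read along the gene), and capitals mark an E2F motif (TTTCCCGC, TTTCGCGC, TTTGCCGC or TTTGGCGC on either strand). Ezh1 lies at chr11:101226414-101226713 (minus strand), Ezh2 at chr6:47594981-47595280 (minus strand), Eed at chr7:89980927-89981226 (minus strand) and Suz12 at chr11:79992856-79993155 (plus strand).
Ezh1: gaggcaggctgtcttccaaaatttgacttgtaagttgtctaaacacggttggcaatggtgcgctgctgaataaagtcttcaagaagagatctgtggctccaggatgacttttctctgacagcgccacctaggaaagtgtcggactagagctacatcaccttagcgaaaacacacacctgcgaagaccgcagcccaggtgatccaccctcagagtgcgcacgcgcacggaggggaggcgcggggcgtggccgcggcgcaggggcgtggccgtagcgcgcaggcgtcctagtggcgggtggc
Ezh2: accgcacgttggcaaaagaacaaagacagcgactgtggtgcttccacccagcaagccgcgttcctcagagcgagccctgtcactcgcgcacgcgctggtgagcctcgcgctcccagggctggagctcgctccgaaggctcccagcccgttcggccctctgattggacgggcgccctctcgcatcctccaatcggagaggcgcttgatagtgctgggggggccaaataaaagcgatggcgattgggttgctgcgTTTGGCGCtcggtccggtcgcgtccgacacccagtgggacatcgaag
Eed: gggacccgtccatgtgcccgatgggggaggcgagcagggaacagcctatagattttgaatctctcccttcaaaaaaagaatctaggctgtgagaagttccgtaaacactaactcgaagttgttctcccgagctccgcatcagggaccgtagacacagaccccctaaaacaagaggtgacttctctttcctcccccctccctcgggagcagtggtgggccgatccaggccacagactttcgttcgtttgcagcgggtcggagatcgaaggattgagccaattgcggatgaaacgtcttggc
Suz12: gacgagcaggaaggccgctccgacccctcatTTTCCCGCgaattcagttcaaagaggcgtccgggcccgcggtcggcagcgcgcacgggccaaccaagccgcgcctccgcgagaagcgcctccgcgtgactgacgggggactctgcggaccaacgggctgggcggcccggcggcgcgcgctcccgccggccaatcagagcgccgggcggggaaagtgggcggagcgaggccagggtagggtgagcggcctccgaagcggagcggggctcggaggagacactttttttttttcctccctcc
The gene bodies on mm10 span chr11:101191115-101226463 (Ezh1), chr6:47530139-47595341 (Ezh2), chr7:89954654-89980983 (Eed) and chr11:79993106-80034123 (Suz12). All 10 members had a RefSeq entry, with 12 promoters in all. The E2F letters were in 3 of the 12 (Ezh2, Suz12 and Phf19), against 2.26% of the 32851 promoters in the table. The match began at position 4 of Ezh2, as TTTGGCGC, and at position -219 of Suz12, as TTTCCCGC, counted from the start, so the letters occur in one gene that rose and one that fell after Chd8 shRNA. The ETS motif CCGGAAGT was in 0 of the 12, against 3.89% of all promoters, and the CCAAT letters in 8 of 12, against 37.4%. These are matches of letters and show no binding.

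Mtf2, which links PRC2 to unmethylated CpG-rich DNA, (chr5:108065674-108109004) was 24.4, 25.0 and 24.7 CPM in nontargeting males against 34.3, 37.4 and 37.6 CPM in Chd8 males. In females it was 31.2, 24.2 and 25.7 CPM against 66.9, 28.3 and 32.5 CPM, with overlap. Averaged it rose by 0.61 ± 0.20 (edgeR adjusted p = 0.0196). Without Chd8 shRNA female replicate 1 the value was 0.37 and not called (edgeR adjusted p = 0.207). Phf1 (-0.44, edgeR adjusted p = 0.0559), Phf19 (-0.81, edgeR adjusted p = 0.0671), Rbbp4 (0.20, edgeR adjusted p = 0.272), Rbbp7 (0.06, edgeR adjusted p = 0.583) and Jarid2 (-0.04, edgeR adjusted p = 0.922) did not pass when averaged.

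Replicate numbers were taken to pair the Chd8 and nontargeting libraries in both sexes, from correlations of deviations from the group mean. In males these were 0.16, 0.12 and 0.14, just above the threshold of 0.1, and in females 0.47, 0.56 and 0.33. Libraries of unlike number were not correlated for comparison. A fit with the number as a block within each sex was added after the data had been seen. It called 5 members in males, against 22.1% of all genes, and 5 in females, against 21.1%. In males these were Ezh2, Ezh1 (-0.35, edgeR adjusted p = 0.00631), Suz12 (-0.42, edgeR adjusted p = 0.00880), Mtf2 (0.56, edgeR adjusted p = 0.00285) and Phf19 (-1.28, edgeR adjusted p = 0.0368). In females they were Ezh2, Ezh1 (-0.39, edgeR adjusted p = 0.00214), Suz12 (-0.42, edgeR adjusted p = 0.00969), Mtf2 (0.56, edgeR adjusted p = 0.00311) and Eed (0.43, edgeR adjusted p = 0.0162). Averaged, the blocked fit called 7 members, adding Phf1 (-0.46, edgeR adjusted p = 0.0157) and Rbbp4 (0.20, edgeR adjusted p = 0.0197), against 36.9% of all genes.

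Med13l shRNA, which depletes a subunit of the Mediator kinase module, was followed by a higher level of 4 members averaged over the sexes (Ezh2, Mtf2, Eed, Rbbp7) and a lower level of 0, against 24.1% of all genes called, 11.8% higher and 12.3% lower. The median log2 fold change was 0.18 over the members and -0.01 over all genes. Rbbp7, a histone chaperone gene on the X chromosome (chrX:162760402-162779092), was 139, 143 and 136 CPM in nontargeting males and 169, 178 and 179 CPM in Med13l males. The female libraries were at 143, 147 and 142 CPM against 196, 189 and 176 CPM. The groups did not overlap in either sex. The log2 fold change was 0.33 ± 0.10 (edgeR adjusted p = 0.0332) in males, 0.38 ± 0.10 (edgeR adjusted p = 0.00972) in females and 0.35 ± 0.07 averaged (edgeR adjusted p = 0.000185). The averaged call held under all 21 alternatives. The male call was lost without any one of its 6 libraries (edgeR adjusted p from 0.0505 to 0.126), and the female call without Med13l shRNA female replicate 1 (0.35, edgeR adjusted p = 0.0833), with each sex fitted separately (0.36, edgeR adjusted p = 0.0879) and with only the libraries compared in the fit (0.38, edgeR adjusted p = 0.332).

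Eed was 15.8, 16.8 and 17.03 CPM in Med13l males, overlapping the nontargeting males. In Med13l females it was 23.3, 19.1 and 19.6 CPM, above every nontargeting female library. The log2 fold change was 0.20 ± 0.16 (edgeR adjusted p = 0.505) in males, 0.59 ± 0.16 (edgeR adjusted p = 0.00860) in females and 0.39 ± 0.11 averaged (edgeR adjusted p = 0.00637). The difference between the sexes was itself not called (-0.39 ± 0.22, male minus female, unadjusted p = 0.0806 and adjusted p = 0.99997, edgeR). Against no virus the averaged value was 0.28 (edgeR adjusted p = 0.0571) and the female value 0.44 (edgeR adjusted p = 0.0519). Without Med13l shRNA female replicate 1 the female value was 0.50 (edgeR adjusted p = 0.103), and with only the libraries compared 0.59 (edgeR adjusted p = 0.244).

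Ezh2 was 7.49, 8.18 and 8.70 CPM in Med13l males and 9.51, 5.61 and 8.69 CPM in Med13l females. The males did not overlap their controls and the females did. Averaged it rose by 0.61 ± 0.19 (edgeR adjusted p = 0.0174), a call that was lost without Med13l shRNA female replicate 1 (0.54, edgeR adjusted p = 0.0610). Mtf2 was 30.1, 36.1 and 39.0 CPM in Med13l males and 50.9, 33.0 and 34.1 CPM in Med13l females, above all of the nontargeting libraries of the same sex. Averaged it rose by 0.52 ± 0.20 (edgeR adjusted p = 0.0457). This call was lost against no virus (0.45, edgeR adjusted p = 0.0937), without the low-count filter (0.52, edgeR adjusted p = 0.0663) and without any one of 8 libraries. These were Med13l shRNA male replicates 2 and 3, nontargeting male replicates 1, 2 and 3, Med13l shRNA female replicate 1 and nontargeting female replicates 2 and 3 (0.42 to 0.53, edgeR adjusted p from 0.0690 to 0.176). Replicate numbers paired the female Med13l libraries only. There the blocked fit called 4 members, adding Ezh2 (0.66, edgeR adjusted p = 0.00621) and Mtf2 (0.51, edgeR adjusted p = 0.00582), against 27.9% of all genes.

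Genes around the complex were read from lists. Of 25 subunits of Polycomb repressive complex 1, the complex that binds the mark PRC2 makes, 1 rose and 9 fell after Chd8 shRNA averaged over the sexes, where 9.85% of all genes rose and 12.5% fell. The median over the list was -0.17. Scmh1 fell in both sexes, by 0.50 ± 0.10 on the log2 scale averaged (edgeR adjusted p = 7.97e-05), and the gene that rose, named after its value was seen, was Phc2 (0.46, edgeR adjusted p = 0.000921). After Med13l 2 rose and 3 fell, where 11.8% of all genes rose and 12.3% fell. Rybp, of the variant form of that complex, fell by 0.86 ± 0.10 (edgeR adjusted p = 1.31e-09), from 49.1 to 29.2 CPM in males and from 46.7 to 23.8 CPM in females. The others, named after their values were seen, were Cbx7 (0.75, edgeR adjusted p = 0.0178), L3mbtl2 (0.25, edgeR adjusted p = 0.0114), Phc2 (-0.30, edgeR adjusted p = 0.0355) and Phc1 (-0.68, edgeR adjusted p = 0.00163).

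Of 5 further PRC2 subunits and inhibitors 4 were tested, and 0 passed after Chd8. After Med13l 2 rose, Lcor (0.74, edgeR adjusted p = 0.00308) and Lcorl (0.68, edgeR adjusted p = 0.0276), both named after their values were seen; their loci also give rise to PRC2 accessory proteins. Of 3 H3K27 demethylase genes 0 passed after Chd8 and 1 after Med13l, the Y-linked Uty (1.95, edgeR adjusted p = 0.0463), named after its value was seen, which had at most 4 counts in female libraries. Of 47 developmental genes known as PRC2 targets only 9 had enough counts to be tested, and the summed level of the list was between 2.65 and 8.62 CPM in all libraries. After Chd8 2 of these fell, the cell-cycle inhibitor genes Cdkn2b (-1.02, edgeR adjusted p = 0.000923) and, named after its value was seen, Cdkn2a (-1.46, edgeR adjusted p = 0.00988). After Med13l 3 fell. Cdkn2b fell by 1.17 ± 0.24, from 1.54 to 0.718 CPM in males and from 1.90 to 0.791 CPM in females (edgeR adjusted p = 0.000237), and the others, named after their values were seen, were Wt1 (-1.38, edgeR adjusted p = 0.00469) and Bmp6 (-1.44, edgeR adjusted p = 0.00834). None of these tested genes rose after either shRNA. Of all genes, 9.85% rose and 12.5% fell after Chd8, and 11.8% rose and 12.3% fell after Med13l. With only 9 genes tested, the absence of a riser cannot be told from such shares. Counts per library were low, 0 to 36 for Cdkn2a, 12 to 102 for Cdkn2b, 4 to 60 for Wt1 and 5 to 78 for Bmp6.

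Because Ezh2 is known to follow cell division, 25 proliferation genes were read beside it. After Chd8 3 rose and 1 fell, where 22.3% of all genes were called. Mcm3, of the replicative helicase, rose by 1.52 ± 0.30 (edgeR adjusted p = 0.000117) and Ccne1, encoding cyclin E1, fell by 0.54 ± 0.12 (edgeR adjusted p = 0.000419). The other risers, named after their values were seen, were Rrm2 (0.74, edgeR adjusted p = 0.00115) and Mcm7 (0.58, edgeR adjusted p = 0.00470). After Med13l 9 rose and 4 fell, where 24.1% of all genes were called. The helicase genes Mcm6 (0.82 ± 0.14, edgeR adjusted p = 9.27e-06) and Mcm2 (0.75 ± 0.13, edgeR adjusted p = 1.23e-05) rose with the cyclin E genes Ccne1 (0.68 ± 0.12, edgeR adjusted p = 1.56e-05) and Ccne2 (1.72 ± 0.36, edgeR adjusted p = 0.000307). The 4 that fell, named after their values were seen, act in chromosome condensation, mitosis or cycling cells. They were Mki67 (-1.02, edgeR adjusted p = 0.0410), Ccnb1 (-1.29, edgeR adjusted p = 0.0380), Top2a (-1.70, edgeR adjusted p = 0.000130) and Cdk1 (-1.83, edgeR adjusted p = 0.0146). Their counts per library were low, 2 to 66 for Mki67, 0 to 48 for Ccnb1, 2 to 156 for Top2a and 0 to 72 for Cdk1. Mcm3, among the genes that rose, had 12 to 154.

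The summed level of the proliferation list was between 141 and 169 CPM in nontargeting males, 169 and 191 CPM in Chd8 males and 212 and 252 CPM in Med13l males. In females it was between 130 and 190 CPM, 149 and 223 CPM, and 180 and 311 CPM. Over the 66 libraries the median of the sum was 157 CPM, with medians of 49.8 CPM for Pcna and 19.1 CPM for Mcm6. Those of Mki67, Top2a, Ccnb1 and Cdk1 were 0.748, 1.39, 0.418 and 0.508 CPM, so the sum says little about these genes. Neural progenitor markers summed to between 95.7 and 102 CPM in nontargeting males, 83.9 and 103 CPM in Chd8 males and 101 and 140 CPM in Med13l males. In females they summed to between 73.3 and 107 CPM, 69.3 and 112 CPM, and 93.5 and 129 CPM, with overlap in both sexes. Their part in the Ezh2 change was not tested. Of the progenitor markers 0 of 6 passed after Chd8 and 1 of 6 after Med13l, Vim (0.51, edgeR adjusted p = 0.0151), named after its value was seen. The shares of all genes called were 22.3% and 24.1%.

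Other cell types were covered by the same marker lists. Beside the counts that follow, 22.3% of all genes were called after Chd8 and 24.1% after Med13l. Of 7 astrocyte markers 1 fell after Chd8, Gfap (-1.81, edgeR adjusted p = 0.00960), and 2 after Med13l, Gja1 (-1.08, edgeR adjusted p = 0.0331) and Aqp4 (-1.15, edgeR adjusted p = 0.0372). Of 5 fibroblast and mural markers 2 fell after Chd8, Dcn (-1.89, edgeR adjusted p = 0.00310) and Lum (-1.64, edgeR adjusted p = 0.0386), and 1 after Med13l, Col1a2 (-1.04, edgeR adjusted p = 0.00963). Of the 6 tested oligodendrocyte lineage markers 0 passed after Chd8 and 1 fell after Med13l, Pdgfra (-1.21, edgeR adjusted p = 0.0323). Of 6 neuron markers Tubb3 (0.33, edgeR adjusted p = 0.0355) and Stmn2 (0.23, edgeR adjusted p = 0.0183) rose and Map2 (-0.35, edgeR adjusted p = 0.0114) fell after Chd8, and 0 passed after Med13l. Of the 4 tested microglia and the 3 tested endothelial markers 0 passed after either. These marker genes were named after their values were seen. Counts per library were low for Lum (0 to 42) and Pdgfra (0 to 58).

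The other 7 knockdowns gave 0 member calls, averaged or in one sex, by the edgeR test over all 66 libraries without a block. Some alternatives made calls there. With no virus as control Rbbp7 was called after Ash1l and after Kdm6b, both averaged, and DESeq2 called Phf19 in Kdm6b males (-1.69, DESeq2 adjusted p = 0.0488). Mtf2 was called in Ash1l males with each sex fitted separately (0.51, edgeR adjusted p = 0.0265) and with only the libraries compared (0.51, edgeR adjusted p = 0.0440). The averaged share of all genes called was 6.16% for Ash1l, 1.4% for Dnmt3a, 0.966% for Kdm6b, 0.694% for Kmt2c, 0.663% for Mbd5, 5.3% for Setd5 and 1.33% for Tbr1. Jarid2 (chr13:44729474-44921643), which encodes a DNA-binding accessory protein of PRC2, was 68.4, 68.3 and 80.6 CPM in nontargeting males, 48.6, 47.5 and 41.1 CPM in Ash1l males and 48.0, 49.2 and 48.1 CPM in Mbd5 males. Both shRNA groups lay below all nontargeting male libraries. Females were at 47.1, 93.2 and 60.9 CPM in the nontargeting libraries 1, 2 and 3, 36.5, 71.5 and 45.4 CPM in Ash1l and 29.5, 77.0 and 50.6 CPM in Mbd5. There the groups overlapped, yet each shRNA library lay below the nontargeting library of its own number.

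Without a block, the log2 fold change of Jarid2 was -0.66 ± 0.28 (edgeR adjusted p = 0.310) in Ash1l males, the smallest unadjusted p of this gene in any knockdown of one sex, and -0.39 ± 0.28 (edgeR adjusted p = 0.868) in Ash1l females. Averaged over the sexes, the unblocked value after Ash1l was -0.53 ± 0.20 (edgeR adjusted p = 0.112). The replicate block with numbers shared between the sexes called that averaged value (-0.53 ± 0.16, edgeR adjusted p = 0.0308). Unblocked values for Mbd5 were -0.58 (edgeR adjusted p = 0.99991) in males and -0.47 (edgeR adjusted p = 0.519) averaged. With each sex fitted separately Jarid2 was called in males after Ash1l (-0.68, edgeR adjusted p = 0.000132) and after Mbd5 (-0.58, edgeR adjusted p = 0.00659). With only the libraries compared both male calls were also made (edgeR adjusted p = 0.00756 and 0.0142). With the within-sex replicate block, where the numbers paired the libraries, it fell by 0.39 ± 0.11 in Ash1l females (edgeR adjusted p = 0.0272, 1 member called against 4.43% of all genes). The unblocked value there ran from -0.72 without Ash1l shRNA female replicate 2 to -0.08 without nontargeting female replicate 2. It fell by 0.58 ± 0.11 in Mbd5 males (edgeR adjusted p = 0.00159, 1 member against 0.979% of all genes) and by 0.48 ± 0.08 in Mbd5 averaged over the sexes (edgeR adjusted p = 3.18e-05, 1 member against 3.32%). In Mbd5 females the blocked value was -0.39 ± 0.11 and was not called (edgeR adjusted p = 0.112). The numbers did not pair the Ash1l males.

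Mtf2 in Setd5 females (60.7, 30.5 and 23.8 CPM) was called in the fit blocked within each sex (0.42 ± 0.15, edgeR adjusted p = 0.0488), as was Rbbp4 (235, 135 and 224 CPM; 0.32 ± 0.10, edgeR adjusted p = 0.0257), 2 members against 13% of all genes. Unblocked, Rbbp4 was also called without Setd5 shRNA female replicate 2 (0.55, edgeR adjusted p = 0.0496). The first of these libraries is the one with Ddx3y counts. Without it the unblocked values were 0.002 for Mtf2, against 0.51 with it, and 0.19 for Rbbp4, against 0.34 with it. Neither passed with or without that library. Averaged over the sexes the blocked fit called Rbbp4 after Setd5 (0.27 ± 0.07, edgeR adjusted p = 0.00537), 1 member against 16.2% of all genes, and so did the unblocked fit without Setd5 shRNA female replicate 2 (0.39, edgeR adjusted p = 0.0347). Phf19 was 1.82, 1.02 and 0.945 CPM in nontargeting males and 0.194, 0.482 and 0.476 CPM in Kdm6b males, without overlap. Its log2 fold change of -1.69 ± 0.47 (edgeR adjusted p = 0.149) was -1.38 (edgeR adjusted p = 0.555) without the libraries that went against their labels. Among comparisons of one sex, Phf1 came nearest in Chd8 females (-0.49 ± 0.24, edgeR adjusted p = 0.227). Replicate 1 stood there at 12.6 CPM, below the other libraries at 32.7 and 29.0 CPM. Without replicate 1 the female value was -0.17 (edgeR adjusted p = 0.835) and the averaged value -0.27 (edgeR adjusted p = 0.274).

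**Figure D4:**
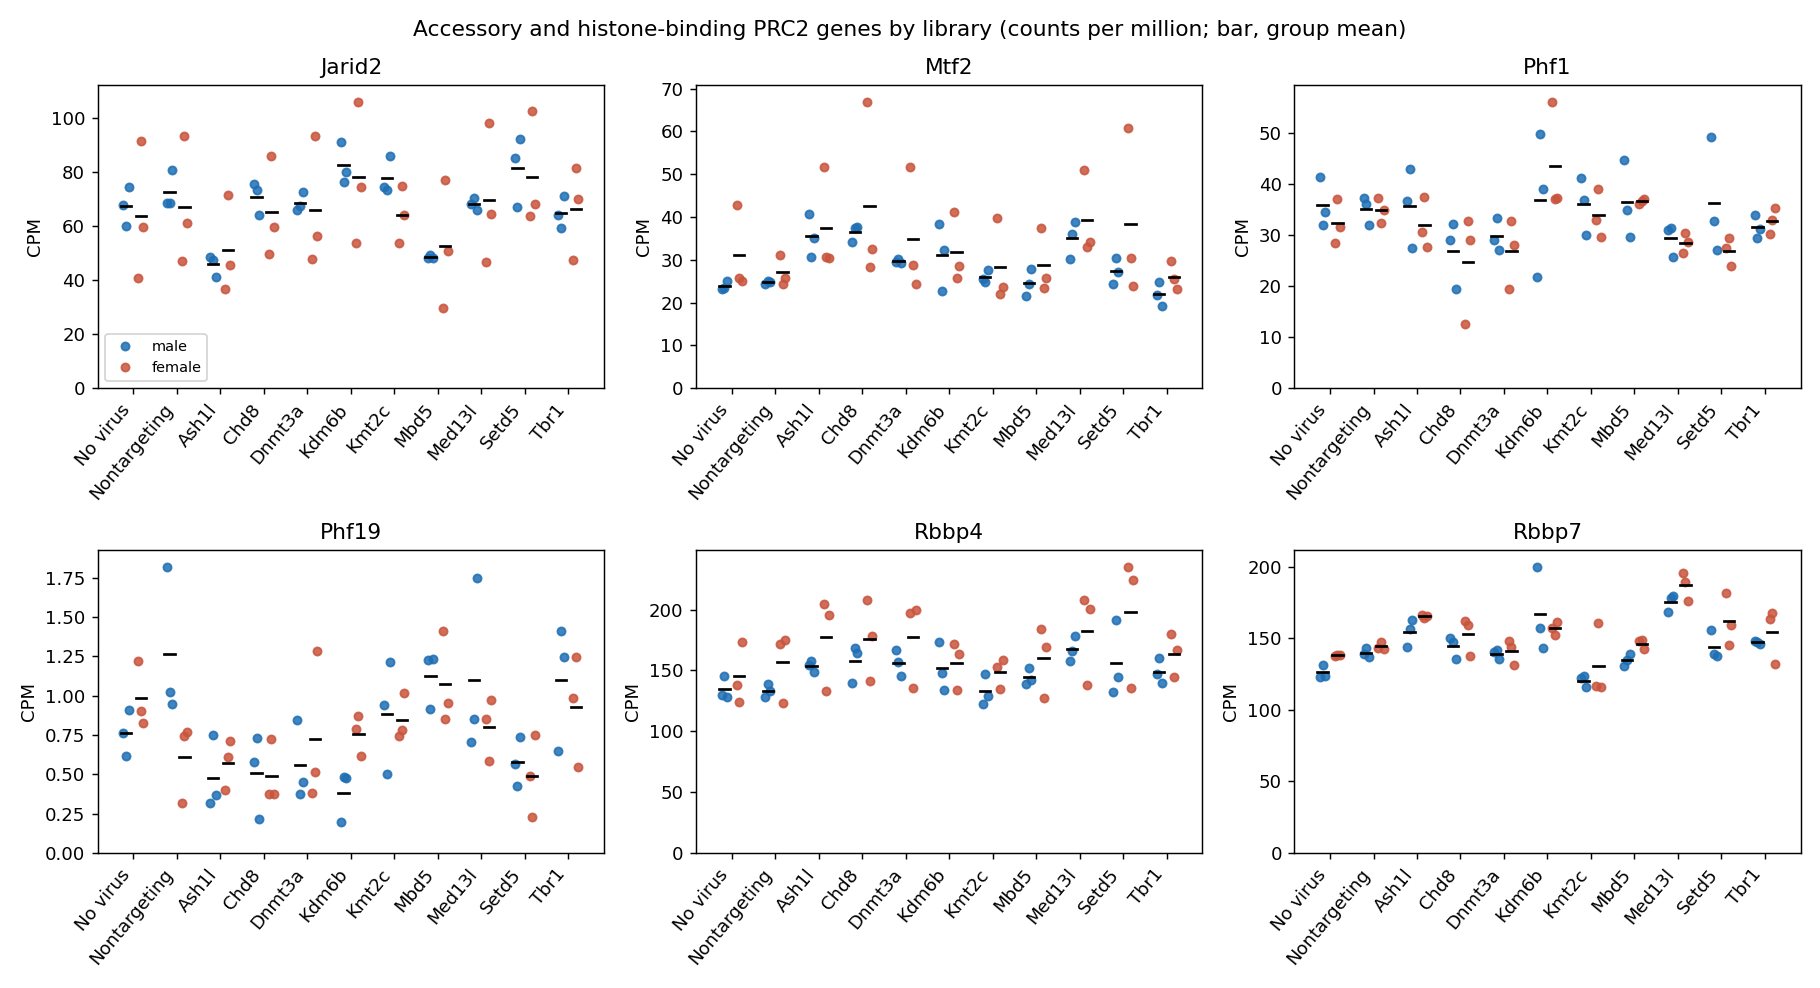
Level (CPM, vertical axis) of the accessory and histone-binding genes in each of the 66 libraries by condition (horizontal axis) and sex; bars are group means of 3 libraries. Jarid2 is lowest in Ash1l and Mbd5 males, at means of 45.7 and 48.4 CPM, and Rbbp7 is highest after Med13l, at means of 175 and 187 CPM.

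How much of each gene's variation followed the condition, the sex or the replicate number was read from sums of squares of log2 CPM over the 66 libraries. The condition took 65.3% for Rbbp7, 55.2% for Ezh2 and 48.0% for Ezh1. It also took 38.9% for Phf19, which the unblocked edgeR test over all 66 libraries called in no knockdown. The replicate number within a sex took 52.6% for Jarid2, 47.5% for Rbbp4 and 43.3% for Mtf2, and 24.0% for Ezh2 and 26.8% for Ezh1. In females the mean over 11 conditions of Jarid2 was 46.9, 88.6 and 61.2 CPM for numbers 1, 2 and 3, that of Mtf2 45.8, 27.1 and 26.97 CPM and that of Rbbp4 186, 134 and 182 CPM. In males Jarid2 was 68.8, 64.7 and 70.4 CPM. The female number 2 libraries were thus high in Jarid2 and low in Rbbp4 in condition after condition. Female number 1 had the highest mean of Mtf2, and of Ezh2 at 8.02 CPM against 4.63 and 6.54 CPM. Without the female number 1 shRNA library, the averaged calls of Mtf2 after Chd8 and Med13l and of Ezh2 after Med13l were lost. The averaged Ezh2 call after Chd8 was kept. What the numbers stand for is not given in the sources used here.

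**Figure D5:**
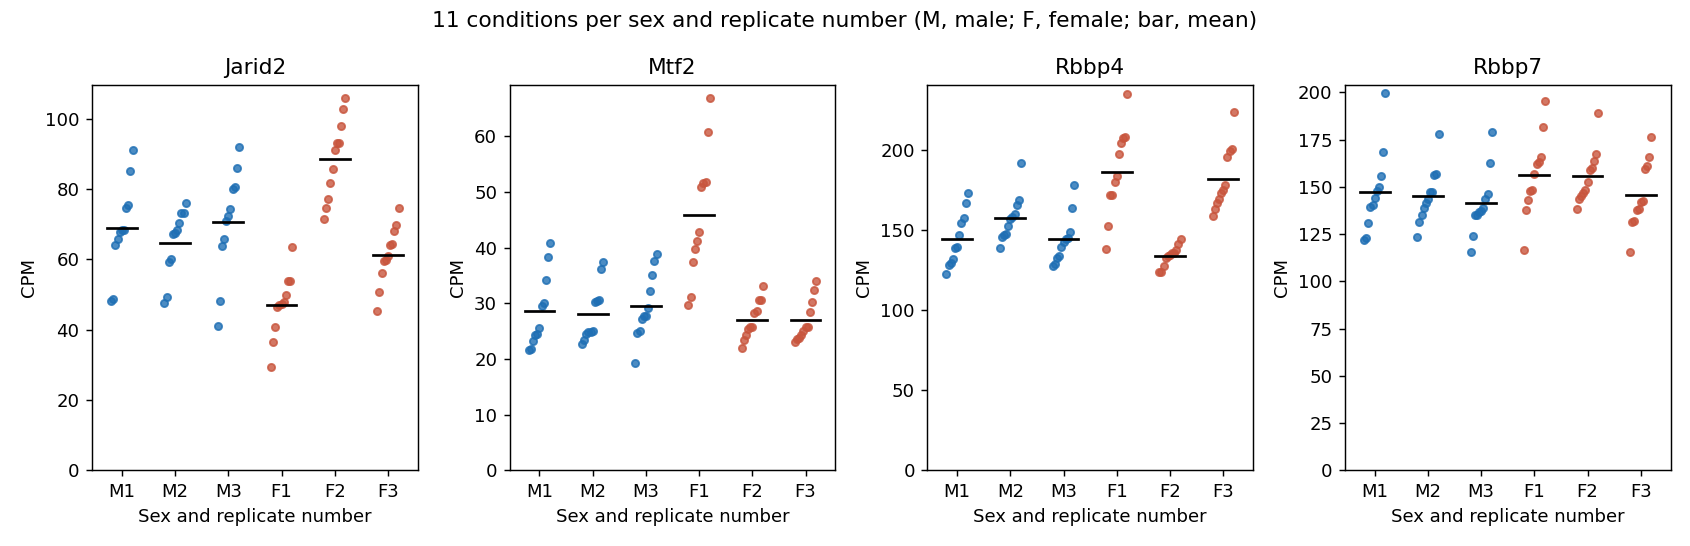
Level (CPM, vertical axis) of Jarid2, Mtf2, Rbbp4 and Rbbp7 for each sex and replicate number (M1 to F3, horizontal axis); each point is one of 11 conditions, drawn in rising order, and bars are means. Female number 2 is highest for Jarid2 (mean 88.6 CPM) and lowest for Rbbp4 (mean 134 CPM), while Rbbp7 means differ little between numbers.

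An interaction term asked whether a knockdown acted differently in the 2 sexes. By edgeR 0 of 90 member comparisons passed, 2 had an unadjusted p below 0.05, and DESeq2 called 0. The share of all genes called was 0.0186% for Setd5 and 0% for each of the other 8 targets. Males and females were also compared directly. No member passed in the nontargeting libraries (0.0434% of all genes called) or in the no virus libraries (0.0434%). Averaged over the 11 conditions Rbbp4 was lower in males (-0.17 ± 0.05, edgeR adjusted p = 0.0163), 1 member against 25.5% of all genes. The 33 libraries of a sex share only 3 replicate numbers. With one mean per number Rbbp4 lay between 7.17 and 7.30 log2 CPM in males and between 7.06 and 7.53 in females, which overlap, and a two-sided exact permutation test of 3 against 3 gave p = 0.4 (the smallest it allows is 0.1). The X-linked Rbbp7 differed by -0.08 ± 0.03 (edgeR adjusted p = 0.0507).

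The genes whose level ran most like Ezh2 over the 66 libraries were Angel2 (Pearson r = 0.82), Rbm43 (0.79) and Mex3a (0.79). Those most like Ezh1 were Wdr82 (0.78), Kctd7 (0.77) and Tmem151b (0.73). The points share replicate numbers and scaling, and the values are descriptions.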

How the data were processed

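RNA was made into polyA libraries with a stranded mRNA kit, per the labels' protocols. The authors deposited one table of whole-number read counts per gene, not normalized. STAR, featureCounts and the build mm10 are named in the submitters' processing notes; versions, annotation, strand setting and the counting of read pairs are not given in the sources used here. Of values from 1 to 20, 26.7% were odd, against 49.1% of values of at least 1000, so counts halved were tried. The table holds 48716 rows; 18483 without a symbol, with 0.69% to 1.41% of counts, were left out, and 149 repeated rows were summed. Of 72 library columns 6 were not used. Control columns carry a luciferase name and were matched to the nontargeting group on that basis.

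The count tests ran in edgeR 4.0.16 (R 4.3.3) with filterByExpr, trimmed mean of M values (factors 0.874 to 1.06), quasi-likelihood F test with robust estimation, one mean per group over 66 libraries, and Benjamini-Hochberg adjustment over 16145 genes within each comparison (threshold 0.05). SE came from the F statistic. CPM used the scaled library sizes, and log2 CPM a prior count of 2. The scripts were tested on simulated data. Libraries of a group differed by more than sampling noise (chi-square per gene 7.92 to 386), so none was counted as a duplicate. Precision rests on the replicates, since amplified reads are not independent molecules.

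Replicate numbers were taken to pair libraries where the deviations of all 3 same-numbered pairs correlated above 0.1 over genes, which held in 6 of 9 knockdowns in males (not Ash1l, Kdm6b, Med13l) and 8 of 9 in females (not Kdm6b). Alternatives were other size factors, DESeq2 1.42.0, no filter, subsets of libraries, replicate blocks, no virus as control and leaving out each library. The members and lists were chosen with earlier results of these data known. Genes named are all members, list genes called in both sexes for a shRNA (at most 4), other list genes where a count was 5 or fewer (named after their values were seen), and the 3 genes most like Ezh1 and Ezh2. Exon lengths and overlaps are from an mm10 annotation, promoters from RefSeq.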

Additional observations from a re-analysis of the deposited data

How the results depend on the processing

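No member value that passed the test, with or without a block, changed direction under any alternative run; member values that did not pass are not covered. The male count of 2 calls became 1 without the filter, 4 with no virus as control, 4 with DESeq2, 10 with each sex fitted separately and 10 with only the libraries compared; leaving out one library gave 0 to 4. The female count of 3 became 5 with DESeq2 and 0 with only the libraries compared; leaving out one library gave 2 to 5. The averaged count of 9 was between 8 and 11 with the other tests, filters, scalings, controls and the block across the sexes. The count of 1 between males and females became 3 with other size factors, 4 with counts halved and 4 with DESeq2. It became 3 without the 3 libraries that went against their labels, and leaving out one library gave 1 to 4. With one mean per number no call was possible, since the smallest p the exact permutation test allows is 0.1. In each of the other cases the cause was not tested. Other size factors and the other settings moved the median of all genes by at most 0.0257 (log2).

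The replicate block, with numbers shared between the sexes, gave 2 calls in males, 6 in females, 11 averaged and 3 between males and females. The block within each sex, added after the data were seen, gave 13, 12, 16 and 5; that includes the knockdowns whose numbers did not pair the libraries, such as Jarid2 after Ash1l in males (-0.66, edgeR adjusted p = 2.71e-05) and averaged (-0.53, edgeR adjusted p = 1.10e-06). With a block or without, 0 calls were made for the sex difference and for nontargeting against no virus.

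Separate fits per sex cover comparisons within a sex only. Phf19 had 4 to 56 counts per library; with counts halved it was called in Chd8 males (-1.26, edgeR adjusted p = 0.0468).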
